A study of Mus musculus with 20 samples.

Results

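The level of 10 choroid plexus genes was followed mouse by mouse in the cerebellar RNA of a study of AAV-delivered shRNA in spinocerebellar ataxia type 7 (SCA7). The genes are Ttr, Folr1, Kl, Clic6, Kcne2, Otx2, Aqp1, Slc4a5, Sostdc1 and Cldn2. They form a list of symbols with no threshold on their values, chosen with earlier results of these data known as a gauge of the tissue dissected, and all 10 were found among the 55401 genes of the read count table. The choroid plexus is a tuft of epithelium, stroma and fenestrated capillaries inside each brain ventricle, and its epithelium secretes the cerebrospinal fluid. The plexus of the fourth ventricle lies under the cerebellum, so a dissected cerebellum can carry more or less of it. Its epithelial cells make transthyretin in very large amounts, and the ion transporters, channels and tight junction proteins in the list serve the secretion of fluid.

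The RNA of whole cerebella was sequenced from 20 C57BL/6J mice, with 1 mouse in each library. In the early experiment, labelled 9 weeks, 3 WT mice treated with AAV-shA4 stood against 3 untreated WT mice. In the late experiment, labelled 25 weeks, the groups were 4 untreated WT mice, 5 SCA7 mice treated with AAV-shSCR and 5 SCA7 mice treated with AAV-shA4. The labels do not say from which event the weeks were counted. The study counts the weeks of the early mice from injection, and the weeks after injection that it gives for the late mice are fewer than the labelled weeks, so the labels are not read as ages here. SCA7 mice are a knock-in strain with 1 mutant Atxn7 allele coding for 140 glutamines (140Q) and 1 normal allele with 5 (5Q). shA4 is an shRNA against CAG repeats and shSCR an shRNA of scrambled sequence, both made from the H1 promoter. The AAV PHP.eB vector, which also makes eGFP from the CMV promoter, was given into the retro-orbital sinus, and untreated mice received saline according to the methods. No library came from untreated SCA7 mice or from AAV-shSCR-treated WT mice, and the methods state that sexes were not mixed within a treatment group. The study's legends give males for the late AAV-shSCR-treated SCA7 and untreated WT mice. They also give males for the AAV-shA4-treated SCA7 mice whose weight was followed.

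Between 31465586 and 54570503 reads were counted on genes in a library. Markers of cerebellar neurons were abundant in all 20 libraries, with Gabra6 of granule cells at 669.3 CPM or more and Pcp2 of Purkinje cells at 362.0 CPM or more. CPM is the read count scaled to library size, with TMM factors over the 20 libraries. One library is singled out below, that of replicate 2 of the AAV-shA4-treated SCA7 mice. It had the lowest level of all 10 genes among the 14 late libraries, and spans, SDs and fold changes that rest on it are also given without it. Dixon's outlier test at the 95% critical value, run for each gene in each late group, flagged 0 of 30 sets of values. This library was thus not flagged as an outlier of its group. In bulk RNA, fewer cells of a type and less RNA per cell cannot be told apart.

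Ttr encodes transthyretin, the carrier of thyroxine in the cerebrospinal fluid, and lies on chromosome 18 (20665280 to 20674321, plus strand, build GRCm38). In the early experiment, Ttr was at 856.5, 1637 and 569.2 CPM in the WT mice given AAV-shA4 and at 784.5, 1204 and 1779 CPM in untreated WT mice. In the late experiment it was at 1048, 934.7, 1635 and 3536 CPM in untreated WT mice and at 579.6, 2703, 1786, 1875 and 1600 CPM in AAV-shSCR-treated SCA7 mice. In AAV-shA4-treated SCA7 mice it was at 3075, 21.33, 464.4, 291.7 and 2674 CPM. All groups overlapped, and the mice of the AAV-shA4-treated SCA7 group were split between levels near the top of the series and the 3 lowest levels of the 20 libraries. The highest level, in replicate 4 of the late untreated WT mice, was 165.8-fold the lowest.

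Ranked by CPM per kb of transcript among the 21897 protein-coding genes, Ttr was number 6 in 3 of the late libraries and number 7 in another. In replicate 2 of the AAV-shA4-treated SCA7 mice it was number 7070, with 835 reads, or 0.00217% of the library, against 0.348% in the highest library. Without that library, the highest level of Ttr was still 12.1-fold the lowest.

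**Figure D1:**
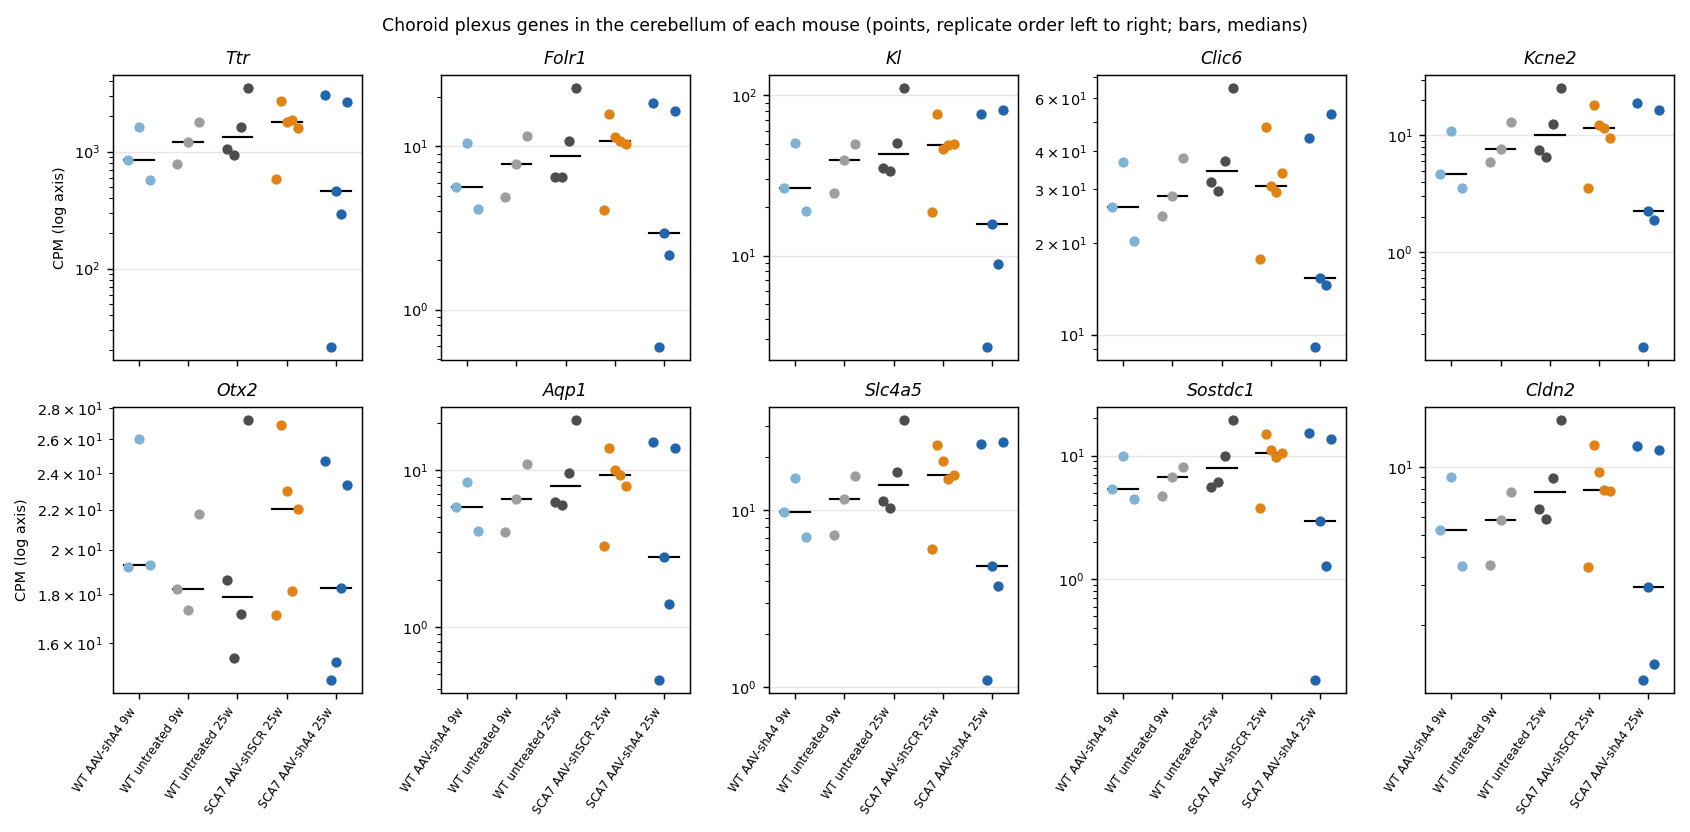
Level of each choroid plexus gene in CPM (log axis, a separate scale for each gene) in 20 mice of 5 groups. Each point is 1 mouse, and the bars are group medians. Replicate 2 of the AAV-shA4-treated SCA7 mice is the lowest point of the late experiment for all 10 genes, and the span of Otx2 (14.7 to 27.2 CPM) is far smaller than that of the other 9 genes.

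Folr1 and Kl encode proteins at the surface of the epithelium, the folate receptor that moves folate into the cerebrospinal fluid and klotho, the co-receptor of FGF23. Folr1 (chromosome 7, 101858331 to 101870788, minus strand) ranged from 4.11 to 11.7 CPM in the 6 early libraries. In the late libraries it was at 6.525, 6.515, 10.87 and 22.97 CPM in untreated WT mice, at 4.070, 15.86, 11.50, 10.87 and 10.31 CPM with AAV-shSCR and at 18.49, 0.5876, 2.963, 2.159 and 16.52 CPM with AAV-shA4. Replicates 2, 3 and 4 of the AAV-shA4-treated SCA7 mice were thus below all other libraries, and replicates 1 and 5 above all but replicate 4 of the untreated WT mice. Kl (chromosome 5, 150952607 to 150993817, plus strand) ranged from 18.9 to 50.9 CPM in the early libraries. In the late libraries it was at 35.04, 33.73, 50.84 and 112.1 CPM in untreated WT mice, at 18.84, 77.15, 46.64, 48.81 and 49.97 CPM with AAV-shSCR and at 76.35, 2.682, 15.80, 8.918 and 80.82 CPM with AAV-shA4. The same 3 mice were again the lowest, and the groups overlapped for both genes. Folr1 overlaps Anapc15 on the opposite strand, which held up to 771 reads in a library, and whether reads were counted by strand is not given in the sources used here.

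Sostdc1 encodes a secreted antagonist of BMP and Wnt signalling (chromosome 12, 36314139 to 36318452, plus strand). It was at 5.545, 6.070, 9.839 and 19.33 CPM in late untreated WT mice, at 3.780, 14.91, 11.01, 9.665 and 10.44 CPM with AAV-shSCR and at 15.21, 0.1533, 2.963, 1.283 and 13.61 CPM with AAV-shA4. The lowest of these values stands for 6 reads, and the highest value is 126.1-fold above it, against a span of 15.1-fold in the other 19 libraries. Folr1 and Kl spanned 39.1-fold and 41.8-fold with that library, and 10.6-fold and 12.6-fold without it.

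Of the channels and transporters, Aqp1 is the water channel of the apical membrane (chromosome 6, 55336432 to 55348555, plus strand), and Slc4a5 a sodium bicarbonate cotransporter (chromosome 6, 83219828 to 83304945, plus strand). Kcne2 is an accessory subunit of potassium channels (chromosome 16, 92292389 to 92298129, plus strand), and Clic6 a protein of the chloride intracellular channel family (chromosome 16, 92485736 to 92541243, plus strand). Kcne2 was at 7.430, 6.489, 12.58 and 25.74 CPM in late untreated WT mice, at 3.518, 18.32, 12.17, 11.61 and 9.448 CPM with AAV-shSCR and at 18.86, 0.1533, 2.250, 1.878 and 16.60 CPM with AAV-shA4. With 6 reads in the lowest library, Kcne2 spanned 167.9-fold, the widest range of the 10 genes. Over the other 19 libraries it spanned 13.7-fold, less than Sostdc1 (15.1-fold) and Aqp1. Aqp1 spanned 45.1-fold (0.460 to 20.8 CPM) and Slc4a5 29.4-fold (1.099 to 32.3 CPM) over the 20 libraries, or 14.7-fold and 8.69-fold over those 19. Clic6 spanned only 7.13-fold (9.10 to 64.8 CPM), or 4.46-fold over the 19, and in replicate 2 of the AAV-shA4-treated SCA7 mice it was at 29.6% of the median of the other 19 libraries. Clic6 overlaps 2410124H12Rik on the same strand, with up to 183 reads in a library.

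Cldn2 encodes claudin 2, which makes the tight junctions of the epithelium permeable to cations and water (chromosome X, 139800828 to 139811386, plus strand). It ranged from 1.15 to 16.1 CPM, a 13.98-fold span, or 11.9-fold over the other 19 libraries. In the library with the least Ttr it was at 14.8% of the median of the others, while Ttr was at 1.33%, Kcne2 at 1.62% and Sostdc1 at 1.89% of theirs. Folr1, Kl, Aqp1 and Slc4a5 lay between these, at 5.70%, 5.75%, 5.81% and 7.30%.

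Otx2 encodes a homeodomain transcription factor that the choroid plexus needs for its formation (chromosome 14, 48657677 to 48673819, minus strand). It varied far less than the other genes. In the late libraries it was at 18.58, 15.44, 17.14 and 27.22 CPM in untreated WT mice, at 17.12, 26.89, 23.02, 18.10 and 22.02 CPM with AAV-shSCR and at 24.69, 14.66, 15.28, 18.24 and 23.33 CPM with AAV-shA4. The whole range over 20 libraries was 1.86-fold, and the library with the least Ttr held 76.4% of the median of the others. Otx2 was nonetheless lowest in that library and highest in the one with the most Ttr. Otx2os1, on the opposite strand, held at most 48 reads in a library and Gm49154, on the same strand, at most 9.

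TAATCC is the DNA core read by homeodomains of the OTX kind, and was searched on both strands of the RefSeq promoters (GRCm38.p6, 250 bases before to 50 bases after a start site). Entries were matched for 6 of the 10 genes, with 10 promoters. Only 1 of them held the motif, a promoter of Otx2 itself, while 7.06% of all 32851 promoters held it. The match is shown because it is the only one among these genes. It lies at position -211 from the start site, and 30 bases around it (chr14:48665303-48665332, minus strand) are given 5′ to 3′ along the gene, with the reverse complement of the motif in capitals.
Otx2 promoter: cgtgtgcccctcGGATTAtctcgttagttt

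Compared per kb of transcript, Ttr was the most abundant of the genes by a wide margin, with a mean of 1225 CPM per kb over 20 libraries. Otx2, Clic6 and Folr1 followed with means of 19.5, 15.3 and 12.4 CPM per kb, and Aqp1 was the lowest, with 3.05. The spread between mice of a group was measured as the SD of log2(CPM + 0.1) within groups, over the 13336 protein-coding genes with a mean of at least 1 CPM. Its median over all these genes was 0.08. The SD was 1.65 for Ttr, 1.503 for Kcne2 and 1.40 for Sostdc1, against 0.70 for Clic6 and 0.30 for Otx2. Of the 10 genes, 8 were among the 50 genes with the largest SD and 9 among the 100 with the largest, Ttr being number 5 and Otx2 number 621. Without replicate 2 of the AAV-shA4-treated SCA7 mice, the SD was 1.07 for Ttr, 1.0972 for Kcne2, 0.99 for Sostdc1, 0.62 for Clic6 and 0.29 for Otx2, and 6 of the 10 genes were among the 50 with the largest SD and 8 among the 100.

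**Figure D2:**
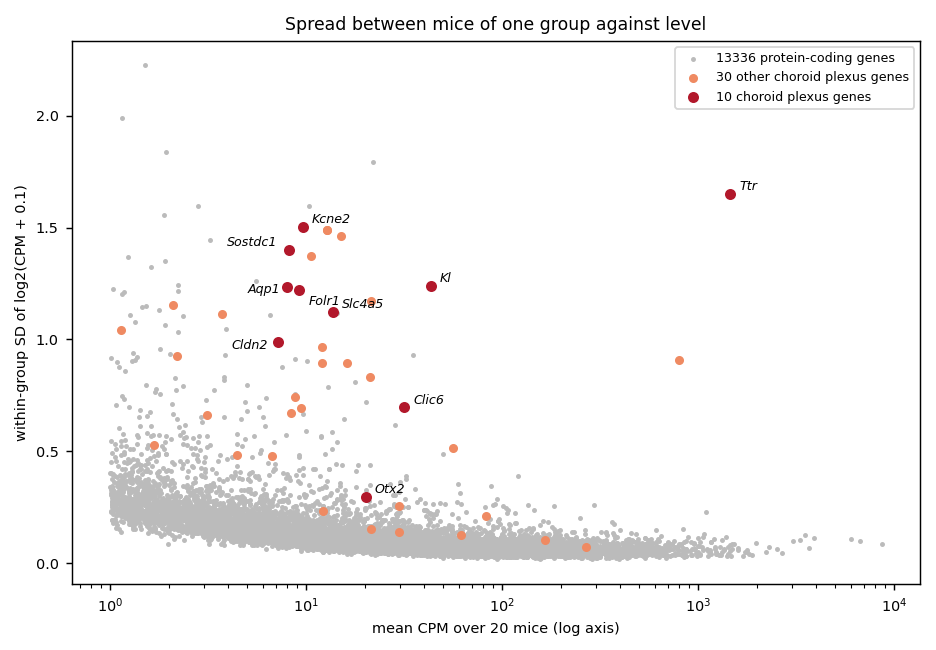
SD of log2(CPM + 0.1) between mice of a group against mean CPM (log axis) for 13336 protein-coding genes (grey), with the 10 choroid plexus genes in dark red and 30 other choroid plexus genes in orange. Ttr (SD 1.65) stands alone among abundant genes, whereas Otx2 (SD 0.30) lies near the upper edge of the grey cloud.

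The 10 genes ranked the mice in nearly the same order. Among the 14 late libraries, replicate 4 of the untreated WT mice had rank 1 and replicate 1 of the AAV-shSCR-treated SCA7 mice rank 11 by each of the 10 genes. Replicates 1 and 5 of the AAV-shA4-treated SCA7 mice and replicate 2 of the AAV-shSCR-treated SCA7 mice held ranks 2 to 4 by each gene. Over these 14 libraries, the Pearson correlation of Ttr with the other genes on the log2 scale was 0.92 to 0.99 for 8 of the 9, and Spearman's rho was 0.89 to 0.99. Their p from 100000 resamples was 1e-05 for r, the smallest these can give, and at most 6e-05 for rho, or 1.13e-05 and at most 6.75e-05 after Benjamini-Hochberg adjustment over the 9 genes. For Otx2, r was 0.73 (permutation p = 0.0005, adjusted 0.0005) and rho 0.85 (permutation p = 0.00012, adjusted 0.00012). Without the 2 libraries farthest from the median of Ttr, r was 0.94 to 1.00 for the 8 genes and 0.86 for Otx2.

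The same held in the 6 early libraries, except for Otx2. There r with Ttr was 0.94 to 1.00 and rho 0.94 to 1.00 for the 8 genes, with adjusted exact permutation p of 0.00625 to 0.0125 for r and 0.00833 to 0.0188 for rho. Otx2 gave an r of 0.61 (exact permutation p = 0.201) and a rho of 0.43 (exact permutation p = 0.419), neither below the threshold after adjustment (0.201 and 0.419). Without the 2 libraries farthest from the median of Ttr, r was 0.92 to 1.00 for the 8 genes and 0.72 for Otx2, over 4 libraries.

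**Figure D3:**
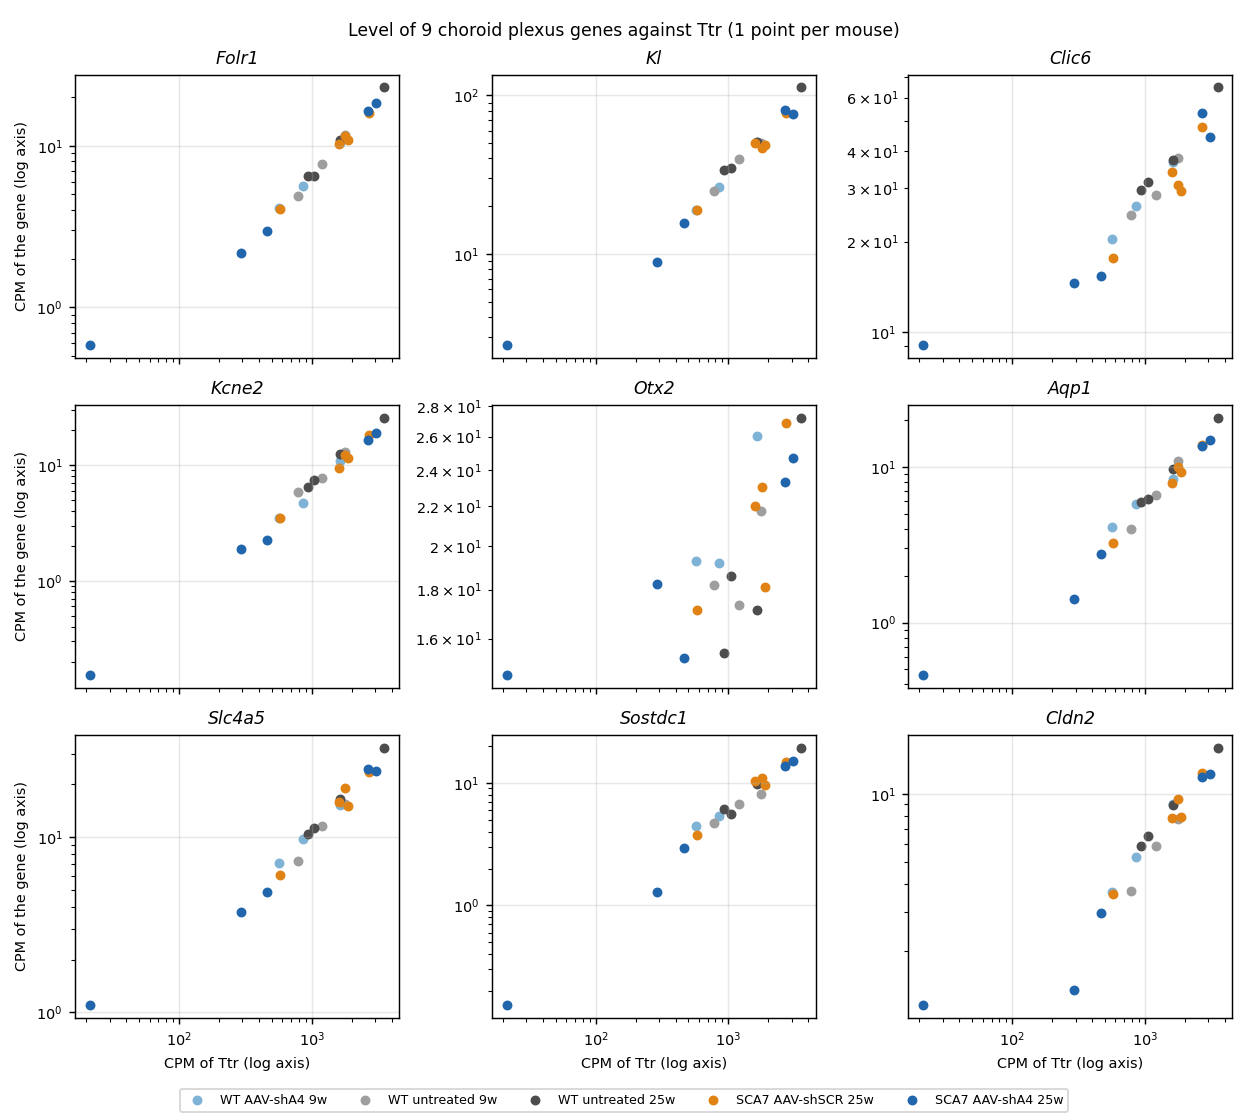
CPM of 9 choroid plexus genes against CPM of Ttr (both axes log), 1 point per mouse, coloured by group. The points of 8 genes rise with Ttr through all groups (r of 0.92 to 0.99 in the late libraries). In the library with the least Ttr, only Kcne2 and Sostdc1 of these genes have a ratio to Ttr within the range of the other libraries. Otx2 spans 1.86-fold over the whole range of Ttr.

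Relative to Ttr, the levels of most of the genes were close to constant. Over 19 libraries, leaving out replicate 2 of the AAV-shA4-treated SCA7 mice, the median was 6.44 CPM of Folr1 per 1000 CPM of Ttr, with a range of 5.79 to 7.40. The SD of this ratio on the log2 scale was 0.09, against 0.91 for the level of Folr1 itself. For Kl, 31.1 CPM per 1000 CPM of Ttr were found (24.8 to 36.1), for Kcne2 6.44 (4.85 to 7.70) and for Aqp1 5.597 (4.83 to 7.21). Clic6 and Otx2 departed from a constant ratio, with 14.4 to 49.8 and 7.70 to 62.5 CPM per 1000 CPM of Ttr. In the library left out, the ratio was 27.5 for Folr1 and 125.7 for Kl, above the range of the others. The ratios of Aqp1 (21.6), Slc4a5 (51.5), Cldn2 (53.9), Clic6 (426.3) and Otx2 (687.4) were above it as well. Only those of Kcne2 and Sostdc1 lay within the range of the others, and these rest on 6 reads of each gene.

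The ratio to Ttr removes most of the difference between mice, so it was also compared between groups. This test was chosen after the data were seen. Of 9 ratios in each comparison, none passed Benjamini-Hochberg adjustment over the 9. In AAV-shSCR-treated SCA7 mice, the log2 ratio of Kcne2 to Ttr was -7.30 ± 0.09 (SD, n = 5), against -7.11 ± 0.06 (n = 4) in untreated WT mice, a difference of -0.19 (exact permutation p = 0.0238, two-sided, adjusted 0.107). For Aqp1 it was -7.58 ± 0.09 (SD, n = 5) against -7.37 ± 0.06 (n = 4), a difference of -0.20 (exact permutation p = 0.0238, two-sided, adjusted 0.107). The groups did not overlap in these 2 ratios, and the smallest p that the design allows is 0.00794. Over 13335 genes, ratios to Ttr without overlap made up 0.0375%, but most genes do not follow Ttr. Of the 47 other genes with a mean r of at least 0.9 with the 10 genes, 3 had such ratios (6.38%). In AAV-shA4-treated SCA7 mice, which share the WT mice, the difference for Kcne2 was -0.25 (exact permutation p = 0.0397, adjusted 0.357), and -0.30 without replicate 2 (exact permutation p = 0.0286, adjusted 0.257). For Aqp1 it was 0.19 (exact permutation p = 0.984) and, without replicate 2, -0.22 (exact permutation p = 0.0857, adjusted 0.386). Between the SCA7 groups, the differences were -0.05 for Kcne2 and 0.39 for Aqp1 (exact permutation p = 0.690 and 0.571). In the early experiment the ratios of Sostdc1 and Cldn2 were higher with AAV-shA4 by 0.33 and 0.38, without overlap, at the exact permutation p of 0.1 that is the smallest 3 against 3 mice can give. In that comparison 5 of the 47 genes (10.6%) had ratios without overlap.

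The comparison of AAV-shA4-treated with untreated WT mice at 9 weeks asks what the treatment does in healthy cerebella. No WT mice were given AAV-shSCR, so the shRNA, eGFP and the vector cannot be told apart in it. The mean of Ttr was 1021 ± 552.7 CPM (SD, n = 3) in treated and 1256 ± 499.4 CPM (n = 3) in untreated mice. Calls needed both an adjusted p under 0.05 in edgeR's quasi-likelihood test and a change of more than 1.3-fold up or down. None of the 10 genes was called, whereas 0.0543% of all genes tested were (8 of 14733). None had an unadjusted p under 0.05 either, against 11.1% of all genes. DESeq2 called 0 of the 10 genes as well. Log2 fold changes ran from -0.48 for Kcne2 to 0.17 for Otx2, with a median of -0.18 against 0.00 over all genes. That of Ttr was -0.30 (SE 0.34, 95% interval -1.04 to 0.435, adjusted p = 0.760).

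At 25 weeks, the contrast of SCA7 mice given AAV-shSCR with WT mice left untreated holds the disease genotype together with the vector. Ttr was at 1709 ± 759.8 CPM (SD, n = 5) in the SCA7 mice and at 1788 ± 1205 CPM (n = 4) in WT mice. None of the 10 genes was called by edgeR or DESeq2, against 4.02% of all genes by edgeR (597 of 14862). None had an unadjusted p under 0.05, against 28.7% of all genes. The log2 fold change of Ttr was -0.06 (SE 0.83, 95% interval -1.82 to 1.69, adjusted p = 0.972), and the 10 genes ran from -0.35 for Clic6 to 0.13 for Otx2. Without replicate 4 of the untreated WT mice, the mouse with the most Ttr, the value for Ttr was 0.50.

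Between AAV-shA4-treated SCA7 mice and untreated WT mice, all 10 log2 fold changes were negative, from -0.69 for Kcne2 to -0.02 for Otx2, with a median of -0.58 against 0.01 over all genes. None was called by edgeR or DESeq2, against 3.45% of all genes by edgeR (513 of 14862), and none had an unadjusted p under 0.05, against 26.6% of all genes. Ttr was at 1305 ± 1448 CPM (SD, n = 5) in the SCA7 mice, an SD above the mean. Its log2 fold change was -0.45 (SE 0.83, 95% interval -2.21 to 1.3, adjusted p = 0.786), and -0.14 without replicate 2 of the SCA7 mice. Leaving out replicate 4 of the WT mice instead gave 0.11 for Ttr, 0.05 for Folr1 and 0.17 for Otx2, with the other 7 genes still negative. Otx2 was also above 0 without replicate 2 or 3 of the SCA7 mice (0.06 and 0.05).

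The comparison of the SCA7 groups with each other tests shA4 against the scrambled shRNA. Again all 10 log2 fold changes were negative, from -0.56 for Sostdc1 to -0.15 for Otx2, with a median of -0.39 against 0.00 over all genes. edgeR called none of the 10 genes, none had an unadjusted p under 0.05, and DESeq2 called none of them. Of all genes edgeR called 0% (0 of 14862), with 1222 (8.22%) at an unadjusted p under 0.05, and DESeq2 called 4. For Ttr the log2 fold change was -0.39 (SE 0.79, 95% interval -2.05 to 1.27, adjusted p = 0.920), and -0.07 without replicate 2 of the AAV-shA4-treated mice. For Clic6 it was -0.22, and 0.01 without that mouse. These comparisons of the late experiment share mice, so their negative values are not separate evidence. The 10 genes also vary together between mice, so the same sign in many of them is not separate evidence either.

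Untreated WT mice at 25 weeks were set against those at 9 weeks, which belong to the other experiment, so time and experiment cannot be told apart. All 10 log2 fold changes were positive, from 0.04 for Otx2 to 0.69 for Cldn2, with a median of 0.56 against 0.01 over all genes. None was called by edgeR or DESeq2, against 5.14% of all genes by edgeR (764 of 14875), and none had an unadjusted p under 0.05, against 36.8% of all genes. Ttr was at 1788 ± 1205 CPM (SD, n = 4) and 1256 ± 499.4 CPM (n = 3), a log2 fold change of 0.51 (SE 0.43, 95% interval -0.448 to 1.47, adjusted p = 0.427). Without replicate 4 of the 25-week mice it was -0.06, and Folr1, Kcne2 and Otx2 were below 0 as well (-0.02, -0.0034 and -0.16). Cldn2 came closest to a call, with 9.351 ± 4.666 CPM against 5.773 ± 2.045 CPM and an adjusted p of 0.175 by edgeR (95% interval -0.0767 to 1.46).

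In none of the 5 comparisons were the values of any of the 10 genes without overlap between the groups. Of all genes tested, 16%, 16.8%, 13.4%, 1.49% and 33.8% had groups without overlap in the order given above.

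**Figure D4:**
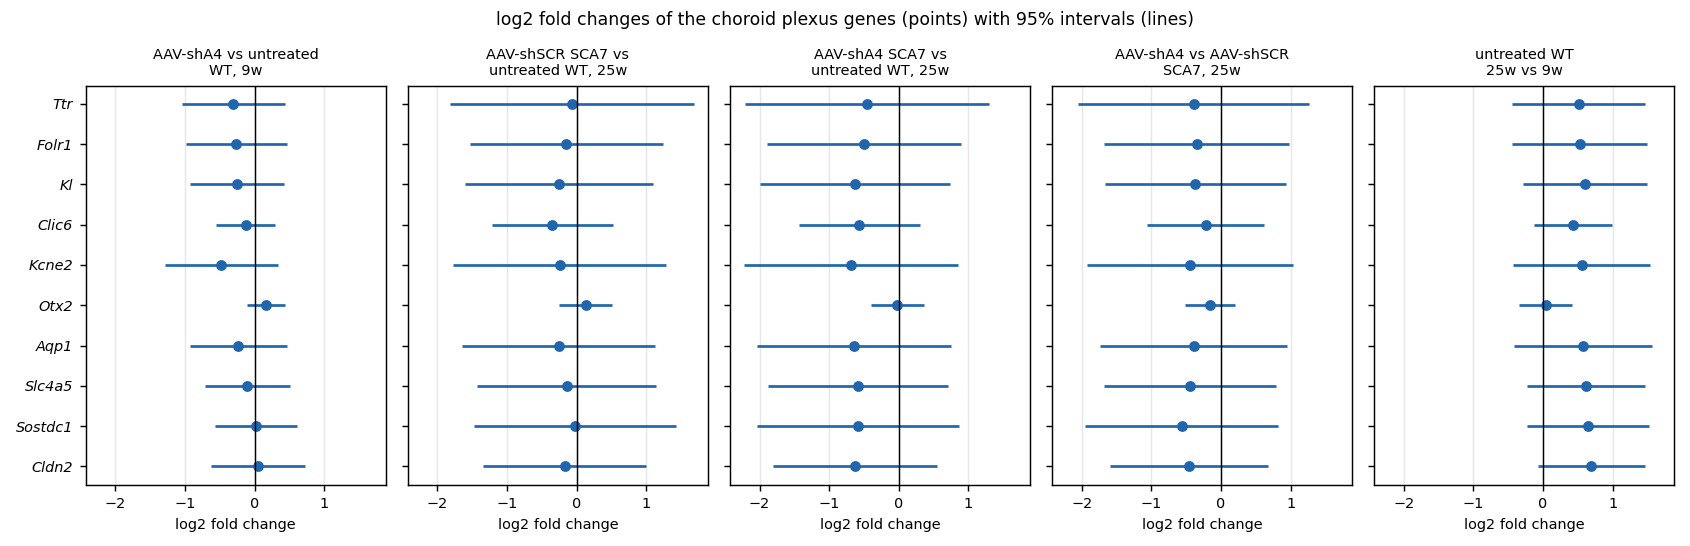
Log2 fold changes of the 10 choroid plexus genes (points) with 95% intervals (lines) from edgeR in the 5 comparisons. Every interval crosses 0, and those of the late experiment reach from below -1 to above 0.3 for all genes but Otx2.

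The other genes of the choroid plexus were described from 3 lists with 33 genes, chosen with earlier results of these data known. The 10 protein-coding genes most like the members in their deviations from group means, by mean Pearson r over 20 libraries, were all among these 33. They were Car12 (r = 0.97), a carbonic anhydrase, Kcnj13, a potassium channel, F5, a coagulation factor, Tmem72, Abca4, Slc16a8, a lactate transporter, Steap1, Enpp2, the enzyme autotaxin, Cldn1 and Mfrp (r = 0.96). Enpp2 was the most abundant of them, with 170.7 CPM in replicate 2 of the AAV-shA4-treated SCA7 mice and up to 1756 CPM in replicate 4 of the late untreated WT mice. Of 13326 genes compared, 47 had a mean r of at least 0.9, and 21 of these belonged to the 30 other choroid plexus genes abundant enough to be compared. The median r over all genes was -0.01. Genes of 1 library share its depth and its composition, so these values are a description. Without replicate 2 of the AAV-shA4-treated SCA7 mice, 63 genes had a mean r of at least 0.9, 20 of them among the 30, and 8 of the 10 genes most like the members were choroid plexus genes of the lists.

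Of the 30 choroid plexus genes compared, 28 had a mean r of at least 0.7 with the 10 genes, or 27 without replicate 2 of the AAV-shA4-treated SCA7 mice, but how far they fell short in that library differed. In replicate 2 of the AAV-shA4-treated SCA7 mice, 14 of the 33 were under 25% of the median of the other libraries, among them Mfrp at 1.68% and Tmem72 at 2.10%. Another 12 were at 25% to 75%, such as Igfbp2, which binds insulin-like growth factors, at 52.2%. The remaining 7 were at 75% or more and were Slc13a4, Slc4a2, Slc4a10, Slc22a8, Slc29a4, Slc12a2 and Epn3. Of these, Slc12a2, the sodium, potassium and chloride cotransporter, was at 87.8% and Slc4a10, a bicarbonate transporter that neurons also make, at 95.8%. The mean r with the 10 genes was 0.67 to 0.90 for 6 of the 7 and -0.22 for Slc22a8, an organic anion transporter.

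In the early comparison, 7 of 32 tested among the 33 had a positive and 25 a negative log2 fold change (median -0.12), and none was called. The smallest p belonged to Epn3 (-0.20, SE 0.07, adjusted p = 0.334 by edgeR) and Slc22a8 (0.16, SE 0.08, adjusted p = 0.453 by edgeR). Only 1 of the 33 had an unadjusted p under 0.05, and DESeq2 called 0.

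In AAV-shSCR-treated SCA7 mice against WT mice, 31 of the 33 were negative (median -0.14) and none was called by edgeR or DESeq2, with 3 at an unadjusted p under 0.05. Epn3, with 26.2 against 32.3 CPM, had an adjusted p of 0.0304 by edgeR but a fold change under 1.3 (log2 -0.30), and Slc29a4, a monoamine transporter, gave -0.22 (adjusted p = 0.0656). In AAV-shA4-treated SCA7 mice against WT mice, all 33 were negative (median -0.36), and 1 was called, a share near the 3.45% of all genes. This was Rdh5, a retinol dehydrogenase, with 9.65 against 14.1 CPM, a log2 fold change of -0.54 (SE 0.15) and an adjusted p of 0.0265 by edgeR. Its values were 11.86, 7.971, 9.274, 7.197 and 11.95 CPM in the SCA7 mice and 12.27, 12.82, 12.56 and 18.67 CPM in the WT mice, without overlap. The call was lost without replicate 2, 3 or 4 of the SCA7 mice (adjusted p = 0.0594, 0.0529 and 0.0597 by edgeR) and without replicate 4 of the WT mice (-0.37, adjusted p = 0.1155 by edgeR). Epn3 (-0.32, adjusted p = 0.0223 by edgeR) and Slc29a4 (-0.26, adjusted p = 0.0359 by edgeR) passed on the p alone with AAV-shA4. In this comparison 4 of the 33 had an unadjusted p under 0.05.

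Between the SCA7 groups, 29 of the 33 were negative (median -0.21), none was called, none had an unadjusted p under 0.05, and DESeq2 called 0. The smallest p belonged to Wfikkn2, an inhibitor of myostatin (-0.35, adjusted p = 0.749 by edgeR), and Slc13a4, a sulfate transporter (-0.20, adjusted p = 0.752 by edgeR). Between the untreated WT mice at 25 and 9 weeks, 29 of the 33 were positive (median 0.43), and none was called by edgeR or DESeq2, with 3 at an unadjusted p under 0.05. Slc4a10 (0.19, adjusted p = 0.00914 by edgeR) and Slc29a4 (-0.24, adjusted p = 0.0495 by edgeR) passed on the p alone.

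The amount of plexus RNA was also set beside the genes that were called in each comparison. Of those abundant enough to be compared, a mean r of at least 0.7 with the 10 genes was found for 0 of 6 in the early comparison. It was found for 2 of 522 with AAV-shSCR against WT (Cox6b2 and Emcn) and for 4 of 461 with AAV-shA4 against WT (Cox6b2, Emcn, Rdh5 and Slco1c1). Between 25 and 9 weeks it was found for 16 of 678 genes. Over all 13326 genes it was found for 195. These genes are named because they met this limit, after their values were seen. Emcn, an endothelial sialomucin, was higher with AAV-shSCR and with AAV-shA4 than in WT mice (9.98 and 9.75 against 6.96 CPM, adjusted p = 3e-04 and 0.000586 by edgeR). The other called genes of the endothelial list were lower in both SCA7 groups, namely Plvap of fenestrated capillaries (log2 fold changes -0.67 and -0.66) and the claudin Cldn5 (-0.40 and -0.63).

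The summed marker lists of ependyma, meninges, endothelium and cerebellar neurons varied less between mice than the sum of the 10 genes. Red blood cell genes spanned 12.46-fold, with or without replicate 2 of the AAV-shA4-treated SCA7 mice. A sum follows its most abundant genes, and the 3 choroid plexus lists differed. The 13 transport genes spanned only 1.515-fold, the 11 structural, transcription factor and enzyme genes 3.345-fold, and the 9 secreted proteins and receptors 9.503-fold. From the lowest to the highest library, the summed CPM of the 10 genes rose 75.5-fold, or 11.4-fold without Ttr (11.2-fold and 6.38-fold over 19 libraries, without replicate 2 of the AAV-shA4-treated SCA7 mice), and that of the 33 other choroid plexus genes 3.71-fold (3.15-fold over the 19). The sum spanned 1.34-fold for 14 genes of ependyma and cilia (201 to 270 CPM), 1.62-fold for 14 of the meninges, 1.26-fold for 9 of endothelium and 1.49-fold for 11 of cerebellar neurons. The median r with the 10 genes was 0.20, -0.01, -0.06 and -0.25 for these lists. Most of the ependymal sum came from Pltp, at 139.9 to 195.4 CPM, so its span says little about the ciliary genes. Of the 12 ependymal and ciliary genes compared, 2 had an r of at least 0.7 with the 10 genes (highest 0.76). Foxj1, which drives the formation of motile cilia, was at 13.8 CPM in replicate 2 of the AAV-shA4-treated SCA7 mice, within the 9.11 to 17.5 CPM of the other libraries. The 16 brainstem markers summed to 0.942 to 2.85 CPM, and Chat, a marker of motor neurons, did not exceed 0.0848 CPM.

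Genes of other lists were called in some comparisons. With AAV-shA4 at 9 weeks all 14 ependymal and ciliary genes had a positive log2 fold change (median 0.65) and 1 was called, beside 0.0543% of all genes. It was Ccdc153 (4.65 against 1.36 CPM, adjusted p = 0.0352 by edgeR), while the 10 genes had a median of -0.18. A like shift was seen between untreated WT mice at 25 and 9 weeks, a comparison that shares the 9-week untreated mice. There 13 of the 14 genes were positive (median 0.66) and 3 were called higher, beside 5.14% of all genes called in either direction. Against 25-week WT mice, 4 of the 11 genes of cerebellar neurons were called lower with AAV-shSCR and 3 with AAV-shA4. Of all genes, 4.02% and 3.45% were called in either direction. Among the called genes were the Purkinje cell genes Calb1 (log2 fold changes -0.46 and -0.41) and Pcp2 (-0.45 and -0.46). Not all 11 were lower: 3 had a positive log2 fold change with AAV-shSCR and 2 with AAV-shA4, among them Gabra6 of granule cells (0.11 and 0.11). The summed level of the 11 genes was 7463 to 7746 CPM with AAV-shSCR and 6829 to 7731 CPM with AAV-shA4, against 8141 to 9531 CPM in WT mice, without overlap. Of all single genes, 16.8% and 13.4% had no overlap in these comparisons. The values of 6829 and 8141 CPM belong to replicate 1 of their groups, the 2 libraries with the highest summed forebrain list (29.1 and 32.9 CPM). Red blood cell genes were highest in replicates 1 and 4 of the AAV-shSCR-treated SCA7 mice (summed 26.6 and 15.9 CPM, against 2.13 to 10.1 CPM in the other libraries). Hbb-bs was called higher with AAV-shSCR than in WT mice (log2 fold change 1.81, adjusted p = 0.0301 by edgeR). The part of these differences in the values of the 10 genes was not tested.

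**Figure D5:**
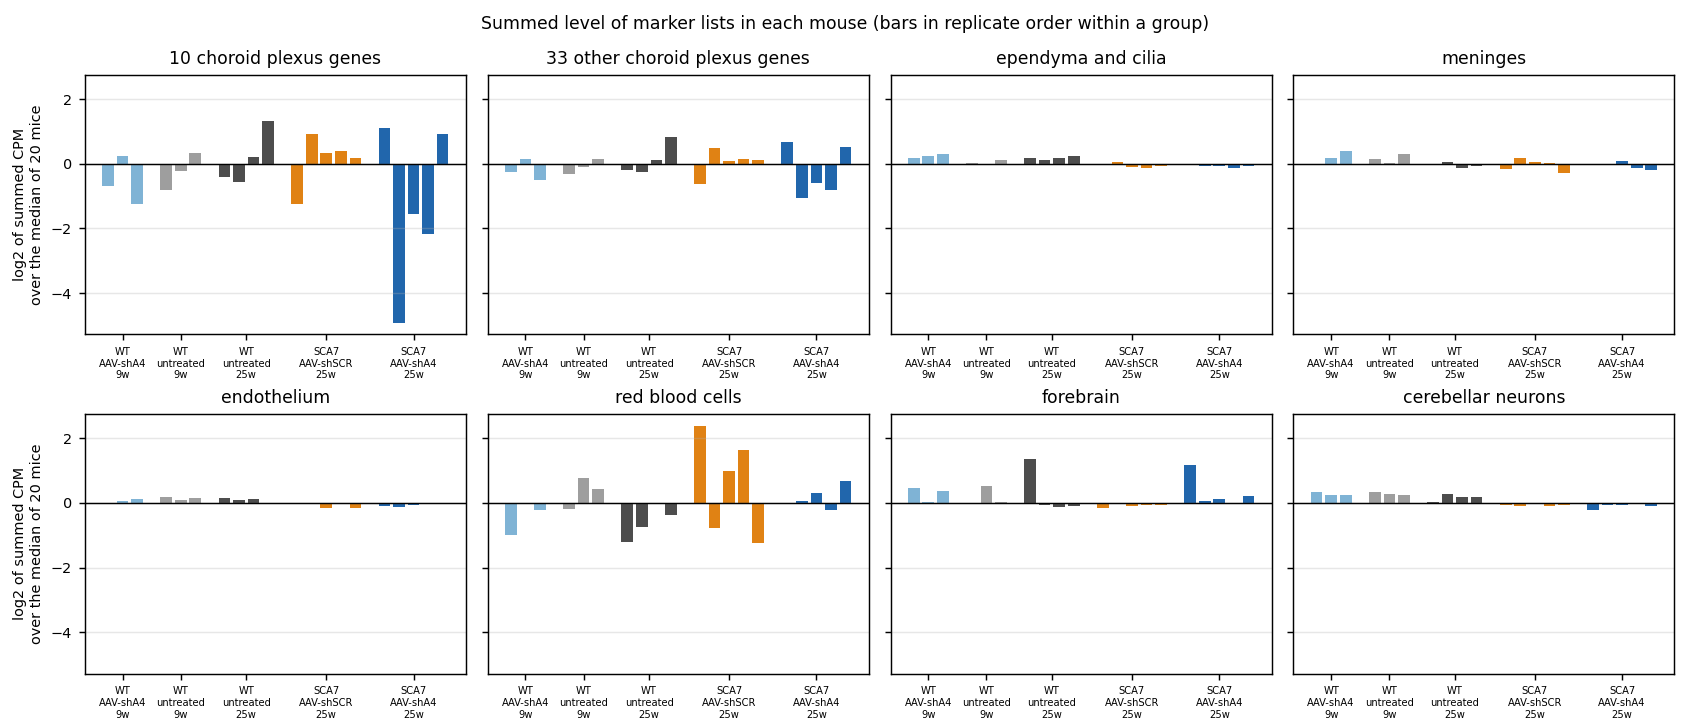
Summed CPM of 8 marker lists in each mouse, as log2 of its ratio to the median of 20 mice, with bars in replicate order within a group. The 10 choroid plexus genes span 75.5-fold (11.2-fold without replicate 2 of the AAV-shA4-treated SCA7 mice) and red blood cell genes 12.5-fold, against 1.26-fold to 1.62-fold for ependyma, meninges, endothelium and cerebellar neurons.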

How the data were processed

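The authors prepared stranded libraries from polyadenylated cerebellar RNA and sequenced single reads of 50 bases. Adapter, polyA, low-quality and ribosomal sequences were removed, reads shorter than 40 bases were dropped, and the others were mapped to the mouse genome (mm10, GRCm38) and counted on genes of Ensembl release 102. The submitters' processing notes name bcl2fastq 2.20.0.422, cutadapt 1.10, Bowtie2 2.2.8, STAR 2.5.3a and HTSeq 0.6.1p1. The deposited values are raw counts per gene, without normalization.

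Symbols, positions and lengths came from GENCODE M21, which has 55141 of the genes, while 260 were left out. Protein-coding genes were tested with edgeR 4.0.16 (TMM, filterByExpr with a minimum count of 10 and total of 15, quasi-likelihood test, Benjamini-Hochberg adjustment) in R 4.3.3, in separate fits for the 6 early, the 14 late and the 7 untreated WT libraries. All 10 genes passed the filter in each fit. Permutation tests of correlations used log2(CPM + 0.1), and those of ratios to Ttr used the log2 ratio of the CPM values with nothing added. DESeq2 1.42.0, other filters, a replicate block and leaving out each library were alternatives. The edgeR test was checked on simulated counts with the same spread for every gene, not with the wider spread of the 10 genes. The permutation tests and Dixon's test were not checked in this way.

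The genes and lists were chosen with earlier results of these data known. All 10 choroid plexus genes are named in each comparison. Other choroid plexus genes are named where called, or else the 2 with the smallest p, together with the 10 genes of largest mean r and the most abundant or defining genes of other lists. No paired libraries were assumed: same-numbered mice deviated together with correlations of -0.226 to 0.492, and in no comparison was every one above 0.1. Counting noise is small at this depth, and the spread between mice limits the precision (common biological coefficient of variation 0.0729 to 0.0790).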

Additional observations from a re-analysis of the deposited data

How the results depend on the processing

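None of the 10 choroid plexus genes was called in any of the 5 comparisons by edgeR, by DESeq2, with DESeq2 size factors, with no filter on low counts, with a replicate block, over all annotated genes, by the adjusted p alone or without any single library. The counts over all genes moved more. In the early comparison 8 genes were called, against 53 by DESeq2, 26 with no filter, 37 with a replicate block, 16 over all annotated genes and 1 to 43 without single libraries. By the adjusted p alone, the counts of 597, 513 and 764 called genes became 2309, 2018 and 3418, and DESeq2 called 4 genes between the SCA7 groups, against 0 by edgeR. The cause was not tested.

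Many directions among the 10 genes changed when 1 mouse was left out, and none of these fold changes passed the test. Without single libraries, log2 fold changes in the early comparison ran from -0.81 to 0.035 for Ttr, from -0.73 to 0.093 for Folr1, from -0.74 to 0.019 for Kl and from -0.38 to 0.066 for Clic6. They ran from -0.53 to 0.21 for Aqp1, from -0.45 to 0.18 for Slc4a5, from -0.40 to 0.24 for Sostdc1 and from -0.37 to 0.33 for Cldn2. With AAV-shSCR against WT at 25 weeks they ran from -0.29 to 0.50 for Ttr, from -0.35 to 0.40 for Folr1, from -0.49 to 0.28 for Kl and from -0.50 to 0.32 for Kcne2. Those of Aqp1, Slc4a5, Sostdc1 and Cldn2 ran from -0.47 to 0.28, from -0.33 to 0.33, from -0.23 to 0.48 and from -0.37 to 0.22. With AAV-shA4 against WT the ranges were -1.05 to 0.11 for Ttr, -1.05 to 0.051 for Folr1 and -0.13 to 0.17 for Otx2, and between the SCA7 groups -0.60 to 0.0075 for Clic6. Between 25 and 9 weeks they were -0.056 to 0.85 for Ttr, -0.025 to 0.88 for Folr1, -0.0034 to 0.94 for Kcne2 and -0.16 to 0.14 for Otx2. Leaving out replicate 4 of the 25-week untreated WT mice gave the most reversals. The cause was not tested.

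The replicate numbers do not pair the mice. With a replicate block, 3 fold changes reversed, that of Sostdc1 in the early comparison (-0.013) and those of Ttr and Otx2 between 25 and 9 weeks (-0.022 and -0.16). With the block, Rdh5 had an adjusted p of 0.0539 by edgeR, and no call among the 10 genes changed. Read depth is not the limit for most of these genes, since the spread between mice far exceeds counting noise, but Kcne2 and Sostdc1 had only 6 reads in the lowest library.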

Other observations

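Genes outside the choroid plexus also set single mice apart, and the genes named here were chosen after their values were seen. Replicate 1 of the AAV-shA4-treated SCA7 mice and replicate 1 of the 25-week untreated WT mice held 118.4 and 120.4 CPM of Nrgn, a calmodulin-binding protein abundant in forebrain neurons, against 2.06 to 15.2 CPM in the other 12 late libraries and up to 51.8 CPM in the early ones. The transcription factor Shox2 was at 9.43 and 10.7 CPM in these 2 libraries and at most at 3.24 CPM in the other 18, and Tcf7l2, a Wnt effector found in the thalamus, at 57.8 and 65.8 CPM against 4.01 to 23.0 CPM. The summed forebrain list was at 29.1 and 32.9 CPM in them, against 11.7 to 18.5 CPM in the other 18. Their Ttr levels were 3075 and 1048 CPM, so these mice were not those with the least plexus RNA.

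Pituitary hormone genes varied as well. Gh, the growth hormone gene, was at 51.1 CPM in replicate 2 of the AAV-shA4-treated WT mice and at 0.203 CPM in replicate 1 of the AAV-shSCR-treated SCA7 mice. Prl, the prolactin gene, was at 6.51 CPM in the former of these libraries and reached at most 1.66 CPM in the late experiment. Among the genes in no choroid plexus list, Igfn1, Col8a1 and Slc24a5 had the largest mean r with the 10 genes, and the lowest level of each was in the library with the least Ttr.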
